A study of Mus musculus with 2 samples.

Results

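The nuclear genes of oxidative phosphorylation were followed in the cerebral cortex of Pax6-/- and wild type NMRI mouse embryos at E14.5, with 1 array for each genotype. Members were taken by gene symbol: every gene named by a probe set with 1 symbol that begins with Ndufa, Ndufb, Ndufc, Ndufs, Ndufv, Uqcr or Atp5, with Cox followed by a digit from 4 to 8, or that reads Sdha to Sdhd, Cyc1 or Cycs. That gave 73 genes on 101 probe sets, of 8251 named genes and 12488 probe sets on the array. A further 10 probe sets that carry such a symbol beside another were left out. Of the 73 genes, 70 encode subunits of the assembled complexes or cytochrome c, and 3 are assembly factors that the symbols take in (Ndufaf1, Ndufaf4 and Cox7a2l).

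The study asked which genes depend on Pax6, a transcription factor of cortical progenitor cells. Its design names 3 embryos of each genotype, but the sources used here leave unsaid whether each array held a pool of them. The labels name the genotype as Pax6-/- without the allele, and the background strain was the same in both groups. The values are MAS5 signals, an Affymetrix summary of the brightness of the probes of 1 probe set, on a linear scale with no replicate array, so no p-value is given and every difference below compares these 2 arrays.

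Oxidative phosphorylation makes ATP at the inner mitochondrial membrane. Complexes I and II pass electrons from NADH and succinate to ubiquinone, complex III passes them to cytochrome c, and complex IV passes them to oxygen, while complexes I, III and IV pump protons that drive ATP synthase, complex V. Most subunits are encoded in the nucleus, and the core subunits encoded by mitochondrial DNA are outside the symbol rule. In the developing cortex, proliferating progenitors are known for a strong use of glycolysis and differentiating neurons for a growing use of oxidative phosphorylation.

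A ratio was formed as log2 of the signal plus a pseudocount of 81.5, Pax6-/- minus wild type, centred on the median of all probe sets above a signal filter of about 166, so it understates the difference of dim genes. Fold values are given on the same scale. Where a gene had several probe sets, the one brightest on average stands for it. A technical spread was taken from the disagreement of probe sets for the same gene and came to an SD of 0.72 (log2) at signals below 471, 0.54 up to 828 and 0.38 above that. Variation among embryos does not enter it.

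Most members sat slightly lower in the Pax6-/- cortex, by amounts within the spread of other genes as bright as they are. Of the 73 genes, 65 passed the filter, with a median log2 ratio of −0.22, equal to 1.16-fold lower. Of those, 44 were lower, against a background of 51.6%, and 21 higher, against a background of 48.4%, over all 5587 genes that passed, whose median was −0.02. Past 2-fold there were 3 members lower (Uqcr11, Sdhd and Ndufa1, 4.62% of 65) against a background of 5.48%, and 1 member higher (Cox6b1, 1.54%) against a background of 5.05%. Among genes of similar signal the shares were 3.62% lower and 2.21% higher. After loess scaling, genes past 2-fold over the whole array split into 204 higher and 370 lower in place of 282 and 306.

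The ratio varied with signal level over the whole array. When the genes above the filter were put in 10 equal groups by mean signal, the median log2 ratio of genes that are not members ran from 0.18 in the dimmest group to −0.26 in the brightest, where 77.9% of them were lower. Members were crowded at the bright end: 35 of 65 lay in the 2 brightest groups, and 52 in the 4 brightest. The group medians that correspond to the 65 members averaged −0.10, and 62.4% of genes of similar signal were lower, against 67.7% of the members. Set against the median of its own group, a member was lower in 40 cases and higher in 25, with a median difference of −0.06. In the brightest group 18 of 20 members were lower (90.0%), with a median of −0.33, and in the next 11 of 15 (73.3%), against 66.7% of other genes there. Members also varied among themselves about as much as genes of similar signal, with an SD of 0.46 against 0.50.

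**Figure D1:**
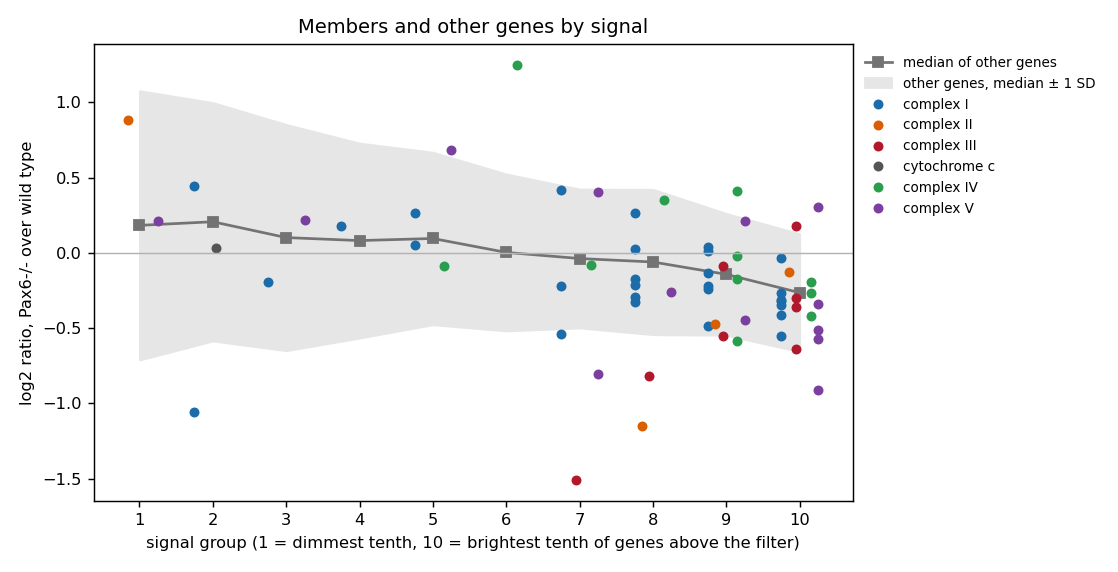
Log2 ratio (Pax6-/- over wild type) of each member above the filter, by 10 groups of mean signal from dimmest to brightest. Points are members coloured by complex, squares are the medians of other genes and the band is 1 SD around them; most members lie in groups 7 to 10 and within the band, near medians that drop to −0.26.

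The complexes did not share 1 position. Complex III had the lowest median, −0.46, followed by complex II at −0.30, complex V at −0.26, complex I at −0.22 and complex IV at −0.09, and the lone cytochrome c gene was at 0.03. Complex III still had the lowest value after the medians of genes of similar signal were taken off, with a median difference of −0.23 against −0.05 for the members outside it. With probe sets free of a suffix that difference was −0.07 over 6 genes, against −0.04 for all members. The complex II median was then the lowest, at −0.48 over 3 genes, against −0.36 for complex III. With the 60th-percentile filter complex II was also lowest, at −0.42 against −0.40 for complex III. Scaling shifted these medians: after loess scaling complex IV turned to 0.0087 and complex V stood at −0.05, and with quantile scaling the median of all members was −0.10. The difference between complexes was not tested, since each member was measured once per genotype.

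**Figure D2:**
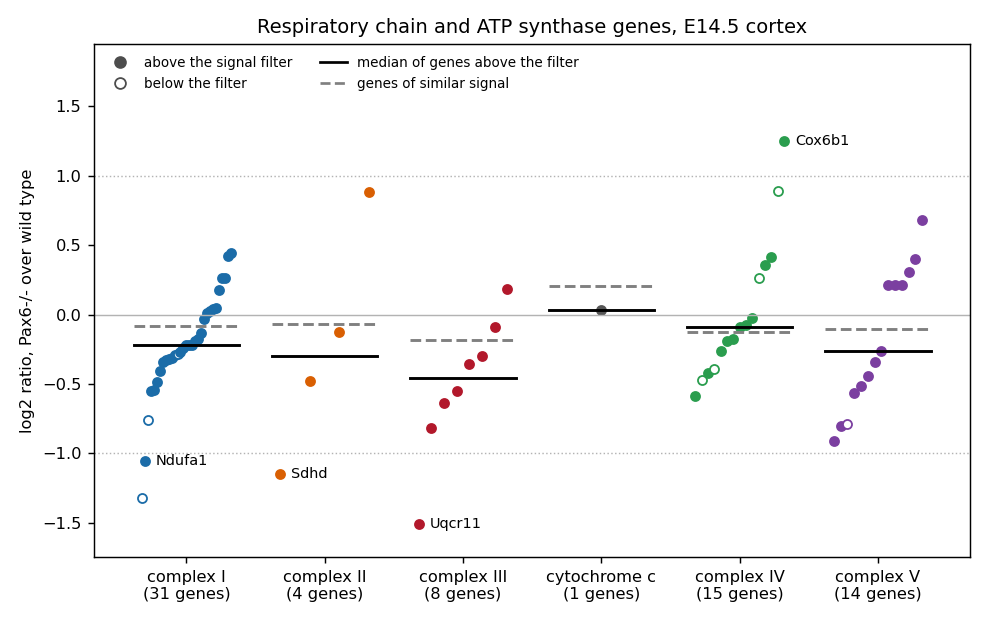
Log2 ratio of all 73 members by complex. Filled points passed the signal filter and open points did not, black bars are medians of the filled points, grey dashed bars are the mean over members of the medians of genes of similar signal, and dotted lines mark 2-fold. The 4 filled points past 2-fold are named (the open point past it is Ndufs4 at −1.33), and the complex III bar at −0.46 lies farthest below its grey bar; after loess scaling the complex IV bar turns to 0.0087.

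The 4 members past 2-fold that passed the filter belong to 4 parts of the chain. Uqcr11, a small accessory subunit of complex III, had a signal of 449 in the Pax6-/- cortex, against 1382 in wild type, which is 2.85-fold lower (log2 ratio −1.51). Sdhd, a membrane anchor of complex II, had 832 in Pax6-/- and 1878 in wild type, 2.21-fold lower (−1.15). Both stayed past 2-fold under all 9 alternatives of scaling, pseudocount, filter and probe set choice. All 4 members lay beyond the technical spread for their signal, as any gene past 2-fold must, since that spread is at most 0.72. Ndufa1, a small subunit of the membrane arm of complex I encoded on the X chromosome, had 149 in Pax6-/- and 382 in wild type, 2.08-fold lower (−1.05). Its Pax6-/- signal lay below the filter, so it passed only through the wild type array, and its other probe set, below the filter, read 77.2 in Pax6-/- and 92.5 in wild type. Cox6b1, the complex IV subunit that bridges the monomers of the dimer, had 985 in Pax6-/- and 353 in wild type, 2.38-fold higher (1.25). Its lone probe set carries an r suffix, which the maker gives to sets that did not meet all probe selection rules. With the 50th-percentile pseudocount Ndufa1 came to −0.69 and Cox6b1 to 0.99, short of 2-fold, and each was past it under the 7 other alternatives that kept it. Just short of 2-fold were Atp5c1 at −0.91, Sdha at 0.89, Uqcrb at −0.81 and Atp5g2 at −0.81.

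The starts of these 4 genes are shown because they carry the largest ratios among members above the filter, from 150 bases before to 10 bases from the annotated start, 5′ to 3′ on the gene's strand, as RefSeq gives them for GRCm38.p6. All 4 genes lie on the minus strand: Uqcr11 at chr10:80406812-80406971, Sdhd at chr9:50603840-50603999, Ndufa1 at chrX:37191229-37191388 and Cox6b1 at chr7:30626105-30626264. Capitals mark matches on either strand to core letters of binding motifs of factors known for nuclear respiratory genes, namely GCGCANGCG for NRF1, CCGGAAGT for ETS factors such as GABP, AAGATGGCG for YY1 and AAGGTCA for the estrogen-related receptors, which do not overlap in these stretches.
Uqcr11: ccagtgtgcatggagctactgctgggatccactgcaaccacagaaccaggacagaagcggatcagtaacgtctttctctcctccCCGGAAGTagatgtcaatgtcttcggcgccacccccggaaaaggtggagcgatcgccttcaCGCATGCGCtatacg
Sdhd: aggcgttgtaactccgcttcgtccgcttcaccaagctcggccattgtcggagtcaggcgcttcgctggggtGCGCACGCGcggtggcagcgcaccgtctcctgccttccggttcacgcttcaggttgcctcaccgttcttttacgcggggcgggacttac
Ndufa1: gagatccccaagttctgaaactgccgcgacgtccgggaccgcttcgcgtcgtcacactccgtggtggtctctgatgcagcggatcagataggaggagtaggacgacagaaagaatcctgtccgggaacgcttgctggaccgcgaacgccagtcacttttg
Cox6b1: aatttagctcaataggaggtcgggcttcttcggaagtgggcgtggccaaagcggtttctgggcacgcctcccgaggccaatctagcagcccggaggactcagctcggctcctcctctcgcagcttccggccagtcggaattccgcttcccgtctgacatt

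The NRF1 letters began 5 bases before the Uqcr11 start and 79 bases before the Sdhd start, and the ETS letters 66 bases before the Uqcr11 start. A match to the estrogen-related receptor letters lay 36 bases after the Sdhd start, outside the stretch shown. Promoter windows of 300 bases (250 before to 50 after the start) were held for 59 of the 73 members. Of these, 52 genes were above the filter, and the NRF1 letters occurred in windows of 16 of the 52 (30.8%), against 15.7% of 4456 other array genes above the filter and 6.25% of all 32851 windows. The last share counts windows, while the others count genes with a match in any window. Windows of members held a median of 58.8% G and C, against 52.7% over all windows. The part of base content in these shares was not tested. For the ETS letters the shares were 5.77% of members above the filter, 9.49% of other array genes and 3.89% of all windows, for YY1 5.77%, 3.75% and 1.40%, and for the estrogen-related receptor letters 9.62%, 4.13% and 4.72%. Members with the NRF1 letters had a median log2 ratio of −0.31, with 11 of 16 lower, and members whose windows lack them −0.16, with 23 of 36 lower. The other splits rest on few genes: 3 members with the ETS letters had a median of −0.36, 3 with the YY1 letters 0.21 and 5 with the estrogen-related receptor letters −0.34, against −0.22, −0.22 and −0.19 for members without each. Such a match describes the letters in the window and is no evidence of binding.

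Complex I oxidises NADH and is the largest complex of the chain. Its 31 genes gave 28 above the filter, 19 lower (67.9%, against 60.5% of genes of similar signal) and 9 higher. The complex I median was −0.22 (−0.11 after quantile scaling). Against genes of similar signal 18 were lower and 10 higher, and 3 differed from them by more than the technical spread. Over all 5587 genes above the filter 1719 did so, and 17 of the 65 members. In the matrix arm, where NADH is oxidised, 8 of 10 genes were lower (80.0%, against 61.9% of genes of similar signal), with ratios between −0.55 and 0.05 and none apart from its signal group by more than the technical spread. Ndufa7 was lowest there, with 2094 in Pax6-/- and 3003 in wild type. Ndufv1, which carries the NADH site, read 5114 in Pax6-/- and 5069 in wild type, and the iron-sulphur subunit Ndufs1 1069 and 1015. Ndufv1 and Ndufs1 were thus nearly equal on both arrays. Set against the medians of their signal groups, Ndufv1 differed by 0.23 and Ndufs1 by 0.08. Ndufv2, another subunit of that arm, read 1606 in Pax6-/- and 1853 in wild type (−0.24), with a difference of −0.10 from its group.

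In the proton-pumping membrane arm 11 of 15 genes were lower (73.3%, against 61.7% of genes of similar signal), with a median of −0.29 where such genes stood at −0.10. After Ndufa1 the lowest was Ndufa8, with 720 in Pax6-/- and 1049 in wild type (log2 ratio −0.54). Ndufb6 had 2682 in Pax6-/- and 3477 in wild type (−0.41). All of the 8 Ndufb genes from Ndufb2 to Ndufb10 were lower, between −0.41 and −0.22, while Ndufb11 was at 0.01. These values lay close to the medians of their groups, with differences from −0.23 to −0.05. Ndufb2 was lower on both of its probe sets above the filter, with 2800 and 1277 in Pax6-/- and 3463 and 1964 in wild type. Ndufb7 had 2535 in Pax6-/- and 3066 in wild type, and Ndufb10 1142 and 1296. Sets of these genes below the filter went the other way. Ndufb7 had 187 in Pax6-/- and 17.8 in wild type there, Ndufb10 47.4 and 28.3, and Ndufb6 46.6 and 14.8. Ndufb2 had 209 and 52.4 in Pax6-/- and 36.8 and 32.8 in wild type there. Ndufa3 was not of 1 sign: its brighter set had 1488 in Pax6-/- and 2049 in wild type (−0.49), and the other 253 and 202 (0.19). The highest of the arm were Ndufa10, with 1088 in Pax6-/- and 766 in wild type (0.42), Ndufa13 at 0.27 and Ndufc1 at 0.26. Ndufab1, an acyl carrier protein found in both arms, was at 0.04. The assembly factors stood on the higher side, Ndufaf4 with 310 in Pax6-/- and 198 in wild type (0.44) and Ndufaf1 with 470 and 390 (0.18), both inside the technical spread of 0.72. Below the filter were Ndufs4, a matrix arm subunit known to stabilise the complex, with 60.1 in Pax6-/- and 262 in wild type (−1.33), Ndufa12 with 69.8 and 166, and Ndufc2 with 108 and 143.

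Complex II, succinate dehydrogenase, also works in the citric acid cycle, and each of its 4 genes rested on 1 probe set. The membrane anchors Sdhd (above) and Sdhc were lower, Sdhc with 1697 in Pax6-/- and 2314 in wild type (log2 ratio −0.48). Sdhb, the iron-sulphur subunit, was nearly equal, with 2016 in Pax6-/- and 2133 in wild type (−0.12). Sdha, the flavoprotein, went the other way, with 327 in Pax6-/- and 133 in wild type (0.89). Its wild type signal was below the filter, so it passed only through the Pax6-/- array. Set against genes of similar signal it was 0.70 higher, within the technical spread of 0.72.

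In complex III, the cytochrome bc1 complex, 7 of 8 genes were lower, where 69.4% of genes of similar signal were. Beside Uqcr11, Uqcrb, which lies at the ubiquinone site, had 754 in Pax6-/- and 1342 in wild type (log2 ratio −0.81). Uqcrq, another small subunit, had 4292 in Pax6-/- and 6522 in wild type (−0.64), and the core protein gene Uqcrc2 had 1132 and 1644 (−0.55). These 4 genes lay 0.38 to 1.47 below the medians of their signal groups, 3 of them by more than the technical spread and Uqcrq by almost exactly that spread. Over all 5587 genes above the filter, 935 lay below their group by more than the spread. Among the 65 members 9 did. The other core protein gene, Uqcrc1, had 2412 in Pax6-/- and 2893 in wild type (−0.30), and the hinge protein gene Uqcrh had 2062 and 2580 (−0.36). Both were within 0.1 of their groups. Uqcr10 read 1582 in Pax6-/- and 1630 in wild type.

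Cyc1, the haem-bearing cytochrome c1, was the exception in complex III, and its direction hung on the probe set. The set with the slightly higher mean read 4560 in Pax6-/- and 3883 in wild type (log2 ratio 0.18), and the other 3744 and 4685 (−0.36). The first carries an r suffix and the other none. The complex III median ran from −0.50 to −0.27 over the 9 alternatives and was below 0 in each. Its difference from genes of similar signal was −0.07 with probe sets free of a suffix, which leave out Uqcrb and Uqcrc2 and take the other Cyc1 set, and lay between −0.29 and −0.22 under every other alternative. Cycs, the soluble cytochrome c that carries electrons onward, read 270 in Pax6-/- and 251 in wild type (0.03).

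**Figure D3:**
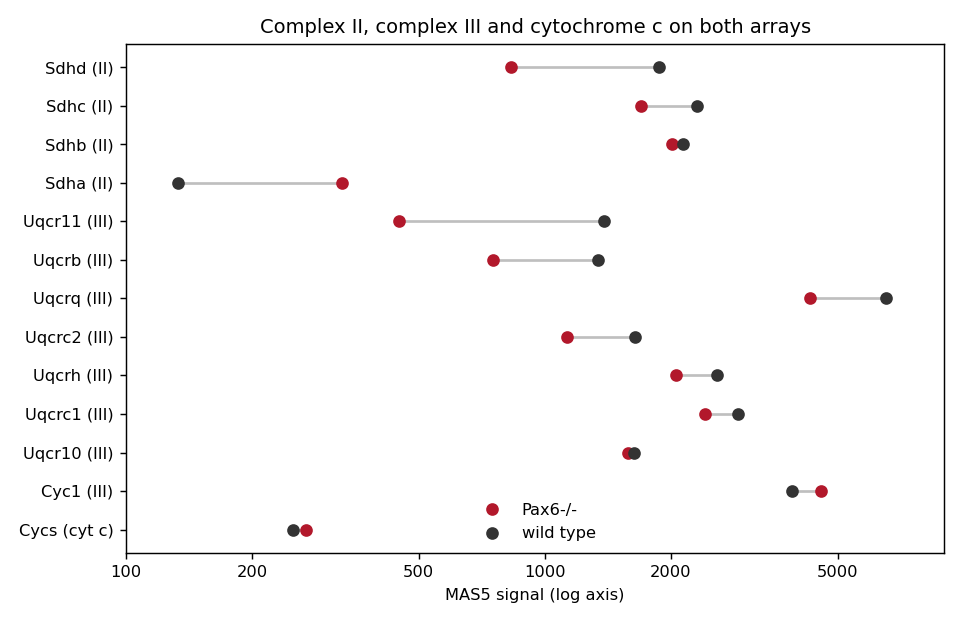
MAS5 signal (log axis) of each gene of complex II, complex III and cytochrome c on the Pax6-/- array (red) and the wild type array (black), with a line joining the 2 values of a gene; levels of different probe sets are not comparable. The red point lies left of the black one for Sdhb, Sdhc, Sdhd and 7 complex III genes and right of it for Sdha, Cyc1 and Cycs.

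Complex IV, cytochrome c oxidase, had the median nearest 0 of complexes I to V. With the mean of probe sets complex V was nearer, at −0.0029 against −0.081 for complex IV. Of the 15 complex IV genes 11 passed the filter, 8 lower (72.7%, against 63.9% of genes of similar signal) and 3 higher. Their median was −0.09 where genes of similar signal stood at −0.12 (complex IV stood at 0.0087 after loess scaling). Among the widely expressed isoforms, Cox5b, the zinc-binding subunit, was lowest, with 1276 in Pax6-/- and 1892 in wild type (log2 ratio −0.59). Cox7a2 had 2837 in Pax6-/- and 3706 in wild type (−0.42), near its group. Cox6a1, the brightest of the complex, had 4978 in Pax6-/- and 5812 in wild type, Cox6c 3383 and 3752, and Cox4i1 487 and 505, with log2 ratios between −0.27 and −0.09. These were close to their groups, and so was Cox7a2l, a factor of supercomplex assembly, at −0.18. Cox7b was higher, with 1231 in Pax6-/- and 913 in wild type (0.35).

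Some subunits of complex IV have forms known from muscle or testis. Of these, Cox8c had 1634 in Pax6-/- and 1607 in wild type and Cox8b 859 and 880, so neither differed by more than the technical spread. The second Cox8b probe set above the filter read 281 in Pax6-/- and 150 in wild type. Cox6b2 was higher on both of its probe sets above the filter, with 1622 and 375 in Pax6-/- and 1159 and 246 in wild type (0.41 and 0.43). The sources used here give no detection calls, so these signals do not show that the isoforms were expressed. Below the filter were Cox6a2 and Cox7a1, both muscle forms, and the common forms Cox5a and Cox8a. Cox5a read 53.8 in Pax6-/- and 90.4 in wild type, and Cox8a read 114 in Pax6-/- and 20.4 in wild type.

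ATP synthase, complex V, was split. Of its 14 genes 13 passed the filter, 7 on the lower side and 6 on the higher, close to even where 62.8% of genes of similar signal were lower, and the median of −0.26 turned to 0.13 with probe sets free of a suffix. In the catalytic F1 head and its stalk, Atp5a1, the alpha subunit, had 5549 in Pax6-/- and 6819 in wild type (log2 ratio −0.34), and Atp5e, the epsilon subunit, was at −0.26. Atp5c1, the rotating gamma subunit, had 1890 in Pax6-/- and 3503 in wild type (−0.91), and its second probe set read 1514 and 1953 (−0.40). Both Atp5c1 sets thus had the same sign with different sizes. The 5 probe sets of Atp5d, the delta subunit, disagreed, from −0.50 to 0.40.

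Among the membrane part and peripheral stalk, 4 of 9 genes were lower (44.4%, against 61.2% of genes of similar signal). Atp5g2 had 544 in Pax6-/- and 979 in wild type (log2 ratio −0.81), whereas Atp5g1, which encodes the same mature ring protein, had 387 and 310 (0.22). The stalk genes differed in the same way: Atp5pb, subunit b, had 706 in Pax6-/- and 394 in wild type (0.68), and Atp5o, which joins the stalk to the head, had 2148 and 3001 (−0.51). Atp5l, subunit g, read 3368 in Pax6-/- and 4876 in wild type on 1 set (−0.57) and 294 and 128 on the other (0.80). The small subunits Atp5mpl, with 3817 in Pax6-/- and 2976 in wild type (0.30), and Atp5md, with 1706 and 2276 (−0.44), were on opposite sides. Atp5j and Atp5k were both at 0.21, and Atp5j2 was below the filter with 19.6 in Pax6-/- and 88.0 in wild type.

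Some members were measured by several probe sets. Of the 10 members with several probe sets above the filter, 5 had 1 sign throughout (Atp5c1, Atp5g1, Cox4i1, Cox6b2 and Ndufb2) and 5 had both signs (Atp5d, Atp5l, Cox8b, Cyc1 and Ndufa3). The widest gap was 1.37 on the log2 scale, in Atp5l, and the narrowest 0.02, in Cox4i1. The remaining 55 members above the filter rested on 1 probe set there. Of the 65, 18 rested on a set with a suffix, for shared or fewer probes or, with r, for unmet probe selection rules. Many of these genes are known to have processed pseudogenes, and a probe set that shares sequence with one cannot be told apart from it here.

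**Figure D4:**
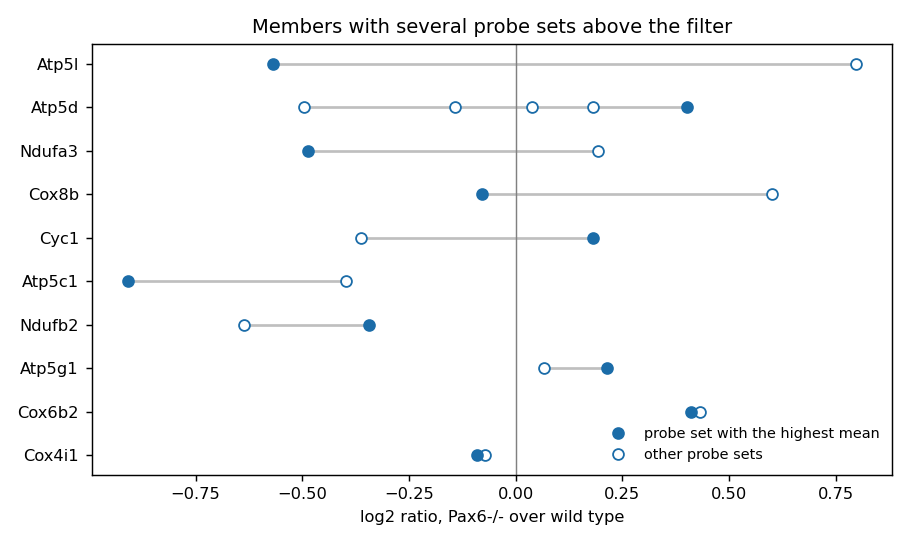
Log2 ratio (Pax6-/- over wild type) of each probe set above the filter for the 10 members with more than 1. Filled points are the sets that stand for the gene in the text and open points the others; 5 genes have sets on both sides of 0, with the widest gap of 1.37 in Atp5l.

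Other mitochondrial genes were set beside the chain with the same measure. The citric acid cycle and pyruvate dehydrogenase list lay lowest, with a median of −0.32 and 12 of 16 lower, where genes of similar signal averaged −0.06 and 57.4% were lower. Suclg2, a succinyl-CoA ligase subunit, had 383 in Pax6-/- and 865 in wild type (log2 ratio −1.07), Pdha1, of pyruvate dehydrogenase, 1287 and 1891 (−0.57), while Sucla2 had 973 and 567 (0.66) and Dlst 1765 and 1175 (0.51). That median ran from −0.36 to −0.25 over the 9 alternatives. Suclg2 and Sucla2, which stood on opposite sides, encode the beta subunits of the GTP-forming and ATP-forming ligases.

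Genes for building mitochondria showed no common side. Of the 56 mitochondrial ribosomal protein genes 31 were lower (55.4%, against 48.2% of genes of similar signal) and 25 higher. These 56 had a median of −0.03 and an SD of 0.70, against an SD of 0.62 for genes of similar signal. Their lowest and highest were Mrpl11, with 69.0 in Pax6-/- and 458 in wild type, and Mrpl21, with 91.4 and 508, against Mrpl55, with 542 and 43.1, and Mrpl33, with 919 and 250. Mrpl16, Mrps12 and Mrps7 were also past 2-fold lower, so 5 of 56 were lower past 2-fold (8.93%, against 5.34% of genes of similar signal) and 2 higher (3.57%, against 5.20%). Of these 7 genes, Mrpl11, Mrpl16, Mrpl21 and Mrps7 passed the filter only through the wild type array and Mrpl55 only through the Pax6-/- array. Import and inner membrane genes had a median of 0.0018, with Tomm20 at −0.75, Hspd1 at −0.63, Timm10 at 0.43 and Timm22 at 0.76, and carriers and channels −0.01, with Slc25a20 at −0.91, Slc25a5 at −0.47, Vdac3 at 0.48 and Vdac2 at 0.72. The signs of these 3 medians depended on the setting.

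Assembly genes, which take in the members Ndufaf1 and Ndufaf4, had a median of 0.15 over 8 genes, with Surf1 and Hccs at −0.82 and −0.49 and Ndufaf4 and Uqcc1 at 0.44 and 0.42. Surf1 passed the filter only through the wild type array. Antioxidant enzymes had a median of −0.06 over 9, with Gpx4 and Nnt at −0.77 and −0.38 and Sod2 and Gsr at 0.55 and 0.13. Genes of mitochondrial DNA upkeep and expression had a median of −0.17 over 10. Polrmt, the mitochondrial RNA polymerase, had 241 in Pax6-/- and 586 in wild type (log2 ratio −1.09), Clpp was at −0.28, Ssbp1 at 0.47, and Endog, an endonuclease, had 578 and 206 (1.15). Below the filter, Lonp1 read 46.5 in Pax6-/- and 331 in wild type, Tfam 21.1 and 107, and Tfb2m 200 and 85.9. Regulators of respiratory gene transcription had a median of 0.33 over 7 genes, which was 0.16 after quantile scaling, 0.14 after loess scaling and 0.014 with the 60th-percentile filter. Ppara and Creb1 passed the filter only through the Pax6-/- array, where they were high. With these 2 left out the middle gene is Yy1, at −0.04, so the sign of the median rests on them. Ppara, a nuclear receptor of fatty acid oxidation, had 454 in Pax6-/- and 125 in wild type (1.33), Creb1 was at 0.97, Sp1 at −0.83, and Esrra at −0.29. The GABP subunit genes Gabpa and Gabpb1 were at 0.33 and 0.35, and Ppargc1a, below the filter, read 270 in Pax6-/- and 22.5 in wild type.

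**Figure D5:**
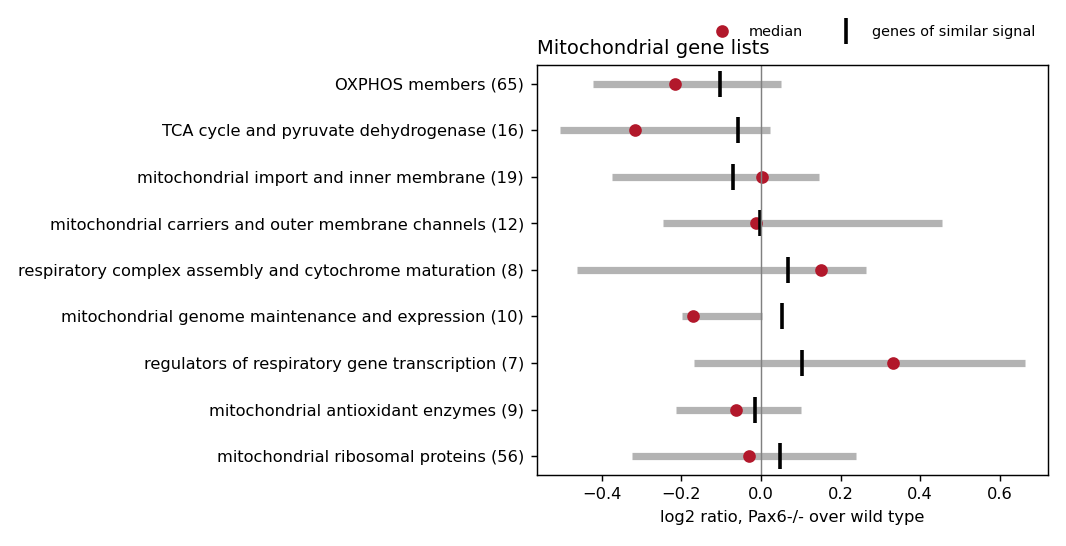
Median log2 ratio (red point), interquartile range (grey bar) and the mean of the medians of genes of similar signal (black tick) for the 65 members and 8 other mitochondrial lists, with the number of genes above the filter in brackets. The citric acid cycle list at −0.32 and the members at −0.22 lie left of their ticks, while regulators at 0.33 (0.14 after loess scaling) lie right of theirs. The regulators' position rests on Ppara and Creb1, which passed the filter only through the Pax6-/- array. The import, carrier and ribosomal protein medians lie near 0 and change sign with the setting.

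Markers of the cell types that the dissected cortex could hold were read beside these values. In bulk tissue, fewer cells of a type and less RNA per cell cannot be told apart. Pax6 had 447 in Pax6-/- and 1169 in wild type (log2 ratio −1.29). Of 6 cortical neuron markers 6 had ratios below 0, where 68.4% of genes of similar signal did, and 4 of 6 lay below the medians of their signal groups. They had summed signals, before centring, of 24862 in Pax6-/- and 32298 in wild type, of which Tubb3 gave 14078 and 16221. Ratios were lowest for Tbr1 at −1.10 and Map2 at −1.0, with Tubb3 at −0.25 and Stmn2 at −0.04 (3292 in Pax6-/- and 3278 in wild type before centring). For 7 radial glia markers, which include Pax6 itself and of which 5 were lower (71.4%, against 61.0% of genes of similar signal), the sums were 14604 and 13358, with Vim at −0.60, Nes at 0.17 and Sox2 at 1.06. Sox2 alone read 5042 in Pax6-/- and 2304 in wild type, and without it the sum would be higher in wild type. For 8 meningeal markers the sums were 3908 in Pax6-/- and 2536 in wild type, of which Col1a2 gave 2436 and 1828. Of these markers 4 were above the filter: Twist2 at 1.52, Foxc2 at 0.90, Col1a2 at 0.35 and Col1a1 at 0.34. Foxc2 and Col1a1 passed only through the Pax6-/- array, and Lum, below the filter, read 39.1 in Pax6-/- and 165 in wild type. For 6 endothelial markers, 3 above the filter, they were 1642 and 995, with Cldn5 at 1.06, Flt1 at 0.78 and Kdr at −0.0043, and for 4 erythroid markers, 3 above the filter, 12369 and 15007, with Hbb-y at −0.63, Hba-a1 at −0.13 and Slc4a1 at 0.50. For 6 muscle markers, 5 above the filter, they were 1897 and 1453, with Ckm at 1.29, Tnnt3 at 1.23, Actc1 at −0.39 and Tnni1 at −0.40. Slc4a1 and Tnnt3 passed only through the Pax6-/- array and Tnni1 only through the wild type array. Medians of genes of similar signal averaged 0.05 for the meningeal markers above the filter and 0.10 for the endothelial ones. For the erythroid markers they averaged −0.12 and for the muscle markers 0.16. The dimmest marker, Foxc1, read 8.93 in Pax6-/- and 3.78 in wild type, where the smallest signal on either array was 1. Without detection calls, a signal that dim does not show that the gene was expressed. The part of these cell types in the small shift of the respiratory genes was not tested.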

How the data were processed

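Total RNA from cerebral cortex was biotin-labelled and hybridised to Affymetrix arrays, 1 Pax6-/- and 1 wild type, per the labels' protocols. The deposited values are intensities, 1 MAS5 signal per probe set; MAS5 is named per the submitters' processing notes. Its version is not given in the sources used here, nor are detection calls. The 2% trimmed mean was 500.2 on both arrays, and the medians were 284 in Pax6-/- and 237 in wild type. The number of arrays limits the precision.

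Probe sets were named from GEO's platform annotation: 10833 with 1 gene, control probe sets left out. Counted with controls included, 396 had several genes and 1237 none. All 73 members matched the GRCm38.p6 gene table by gene ID. The pseudocount was the 25th percentile of all signals, the filter the 40th percentile of mean log2 values, and centring removed 0.05. The technical spread came from the 2 brightest probe sets of 894 genes. Genes named in the text are those past 2-fold, the 3 highest and 3 lowest and the brightest of each complex, members with several probe sets, the 2 highest and 2 lowest of each other list, and Pax6; others were chosen after their values were seen. The members and lists were chosen with earlier results of these data known. The alternatives, set out in the closing section, were no centring, quantile or loess scaling (fraction 0.4, 3 iterations), a pseudocount at the 50th percentile or none (floor at the 1st), a filter at the 60th percentile or none, averaging the probe sets of a gene, sets without a suffix, 1.5-fold and 3-fold, 5 or 20 signal groups, and subunits only. The steps were tested on simulated data. The software was matplotlib 3.10.9, statsmodels 0.14.6, scipy 1.17.1, pandas 2.3.3 and numpy 2.4.6 under Python 3.11.15.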

Additional observations from a re-analysis of the deposited data

How the results depend on the processing

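Of 193 recomputed medians and counts, 166 moved by less than the technical spread over the root of the number of genes, or for counts stayed within 1.5 times, 16 moved further and 11 changed sign. Quantile and loess scaling, which take off a trend with signal, brought the median of all members to −0.10 and −0.094, of complex I to −0.11 and −0.10 and of complex V to −0.042 and −0.054, and loess turned complex IV to 0.0087. Complex V was −0.0029 with the mean of probe sets and 0.13 with probe sets without a suffix. Members at least 2-fold higher numbered 2 without a pseudocount, 0 with the 50th-percentile pseudocount and 0 with probe sets without a suffix, which leave out Cox6b1. The shares of all genes at least 2-fold higher were 7.99%, 1.61% and 5.13% in these settings. At 1.5-fold 3 members were higher and 8 lower, and at 3-fold 0 and 0. The shares of all genes at these thresholds were not counted, so no excess of members can be read from them. The median of import genes turned to −0.0032 with quantile scaling, −0.0011 without a pseudocount, −0.10 without a filter and −0.054 with sets without a suffix. That of carriers turned to 0.033 without centring, to 0.031 with the 60th-percentile filter and to 0.12 with the mean of probe sets. Mitochondrial ribosomal proteins turned to 0.016 without centring and 0.044 with the 60th-percentile filter, and moved to −0.13 with sets without a suffix; regulators moved to 0.014 over 3 genes with the 60th-percentile filter. The cause was not tested. Of 373 recomputed ratios of 43 named members, 368 stayed within the technical spread, and the 5 others were Atp5c1, Cox8b and Cyc1 with sets without a suffix and Atp5d and Atp5l with the mean of probe sets. No paired analysis was possible because each genotype has 1 array. Dim members have the widest spread, and a shift of the size seen here cannot be told apart from an offset between the arrays.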
